A study of Mus musculus with 76 samples.

Results

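The collagen genes are the members of the mouse collagen family, taken here as every gene of the count table whose symbol has the form Col, a number, a and a second number. There were 44 of them among the 38924 genes of the table. Of these, 11 encode chains of the fibrillar collagens, 8 encode chains of the basement membrane collagens (Col4a1 to Col4a6, Col15a1 and Col18a1), and the other 25 encode beaded filament, short chain, fibril-associated, transmembrane, anchoring and further chains. Their mRNA was measured by RNA sequencing in neurons and their progenitors differentiated from embryonic stem cells. The cells came from the inbred mouse strains C57BL/6J, written B6 here, and WSB/EiJ, written WSB. The 70 libraries fell into 16 groups. At the neural progenitor (NPC) stage, B6 control, B6 ID-8, WSB control and WSB ID-8 cultures had 6 libraries each. At the maturation stage the same 4 groups had 4 libraries each. At the axon stage, control and ID-8 cultures of each strain were either left uncut or axotomized (cut), with 4 libraries a group, or 3 for uncut WSB cultures with ID-8 and for cut B6 cultures with ID-8. ID-8 is a small molecule inhibitor of the kinase DYRK1A. All groups share the route from stem cells to neurons in a dish, and the labels name no engineered allele in any of them. The cultures were sampled whole, and the labels do not say whether libraries of a group came from separate differentiations, so p-values measure the spread between these libraries.

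Collagens are extracellular proteins in which chains wind into triple helices. Fibrillar collagens (types I, II, III, V, XI, XXIV and XXVII) form the tensile fibres of connective tissue and are made chiefly by mesenchymal cells, type II being the collagen of cartilage. Type IV collagen, built as trimers of its 6 chains, is the network of every basement membrane, and types XV and XVIII are proteoglycans of that zone. In the nervous system basement membranes surround vessels, meninges and the outer surface of the developing brain, while neurons themselves make a few transmembrane or fibril-associated types such as Col25a1 and Col19a1. In whole cultures, fewer cells of a type and less RNA per cell cannot be told apart.

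Sequences are shown for 2 pairs of chains that assemble with each other and that both changed in at least 1 comparison below: Col4a1 with Col4a2, and Col8a1 with Col8a2. Each window runs from 250 bases before to 50 bases after the gene's start, from RefSeq on build GRCm38.p6, 5′ to 3′ on the gene's own strand, with capitals marking motif matches on either strand.
Col4a1, chr8:11312777-11313076, minus strand: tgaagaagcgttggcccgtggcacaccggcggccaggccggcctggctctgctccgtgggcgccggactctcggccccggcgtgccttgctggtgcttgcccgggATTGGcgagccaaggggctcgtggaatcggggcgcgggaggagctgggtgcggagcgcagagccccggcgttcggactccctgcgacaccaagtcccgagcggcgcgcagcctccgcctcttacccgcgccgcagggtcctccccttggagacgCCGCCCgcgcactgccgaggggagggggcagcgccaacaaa
Col4a2, chr8:11312555-11312854, plus strand: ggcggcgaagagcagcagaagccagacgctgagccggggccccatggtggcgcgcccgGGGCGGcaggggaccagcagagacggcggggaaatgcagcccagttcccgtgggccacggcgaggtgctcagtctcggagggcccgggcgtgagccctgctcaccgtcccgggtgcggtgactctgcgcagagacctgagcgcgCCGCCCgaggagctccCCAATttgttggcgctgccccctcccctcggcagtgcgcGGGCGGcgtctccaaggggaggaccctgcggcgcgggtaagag
Col8a1, chr16:57754688-57754987, minus strand: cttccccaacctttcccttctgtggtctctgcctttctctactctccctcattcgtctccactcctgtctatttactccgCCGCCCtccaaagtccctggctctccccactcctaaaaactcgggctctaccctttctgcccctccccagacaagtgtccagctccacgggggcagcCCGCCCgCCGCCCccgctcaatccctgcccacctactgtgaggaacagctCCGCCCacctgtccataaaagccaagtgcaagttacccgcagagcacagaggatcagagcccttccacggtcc
Col8a2, chr4:126286544-126286843, plus strand: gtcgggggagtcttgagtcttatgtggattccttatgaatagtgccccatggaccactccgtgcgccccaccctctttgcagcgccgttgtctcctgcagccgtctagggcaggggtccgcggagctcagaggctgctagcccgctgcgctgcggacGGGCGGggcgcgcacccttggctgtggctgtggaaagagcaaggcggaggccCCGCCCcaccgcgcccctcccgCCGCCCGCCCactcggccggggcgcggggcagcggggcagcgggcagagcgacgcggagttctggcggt
Col4a1 and Col4a2 lie head to head on chromosome 8, and their windows share 78 bases. The motifs searched were the GC box GGGCGG, the CCAAT box CCAAT, the TATA box TATAAA, the TEAD motif GGAATG and the CArG box. The 4 windows held GC boxes (1 in Col4a1, 3 in Col4a2, 4 in Col8a1 and 4 in Col8a2, of which the last 2 in Col8a2 overlap), and the Col4a1 and Col4a2 windows held 1 CCAAT box each. The GC box of the Col4a1 window and the last GC box of the Col4a2 window are the same site, in the shared bases. The other 3 motifs did not occur in these 4 windows. Of the 35 collagen genes with a promoter entry, 22 held a GC box, 12 a CCAAT box, 5 a TATA box, 4 the TEAD motif and 1 a CArG box. Over all 32851 promoter windows of the same length the shares were 35.7%, 37.4%, 13.6%, 14.7% and 1.63% in that order. A match describes letters in the window and no more.

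Levels are counts of a gene per 1000000 counts of its library (CPM), and library totals ran from 20368997 to 131489457 counts. None of the 5 neuron and 4 neural progenitor markers was under 0.1 CPM in every library of any group, and the neuron sum was lowest in NPC B6 ID-8, 155 to 1399 CPM. In that group the neural progenitor sum was 281 to 789 CPM and the sum of 4 pluripotency markers 531 to 1203 CPM. A library was checked against its strain label with 162 genes that differed strongly between B6 and WSB control cultures at the 2 earlier stages. The reference levels came from the same control libraries, so the agreement of those libraries is in part built in. In 69 libraries at least 91.4% of the genes lay nearer the labelled strain. In replicate 3 of the group labelled as cut WSB axon cultures with ID-8, 3.09% did. That library goes against its strain label, and axon-stage results that rest on it are given with and without it. The comparison between stages was fitted only with it. At the axon stage the culture names in the deposited table tie libraries to 4 culture sets in each strain, called here sets 1 to 4 by the replicate number of their uncut control library, and the library named above carries the name of WSB set 3. A gene was called changed at an adjusted p under 0.05 in edgeR's quasi-likelihood test over all genes, and differences are on the log2 scale with their standard errors. Comparisons within a stage share control libraries.

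Summed over the 44 genes, collagen mRNA had its lowest group mean in NPC WSB control and its highest in cut control B6 cultures at the axon stage. The sum was 1945 ± 401 CPM (SD, n = 6) in NPC B6 control and 5341 ± 1969 CPM in NPC B6 ID-8, against 1300.5 ± 254 and 1404 ± 436 CPM in the matching WSB groups. At the maturation stage it was 2856 ± 758 CPM (n = 4) in B6 control and 1576 ± 274 CPM in B6 ID-8, and 6070.3 ± 1739.7 and 4292 ± 1637 CPM in WSB control and ID-8. The group means of the 4 B6 axon groups lay between 9048 and 9985 CPM. In WSB axon cultures the mean was 3009 CPM uncut and 3992 CPM cut without ID-8, and 2647 and 6998 CPM with it, the last falling to 5591 CPM without the library against its strain label.

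The 3 classes were weighted differently at each stage. Basement membrane collagens made up most of the sum at the NPC stage: they held 1418 ± 356 CPM in B6 control and 685 ± 181 CPM in WSB control, against 372 ± 82.3 and 475 ± 91.5 CPM for the fibrillar class. In maturation WSB control the fibrillar sum, 2707 ± 1139.7 CPM, stood above the basement membrane sum, 1817 ± 287 CPM, a difference smaller than the SD of the fibrillar sum, while in maturation B6 control the order was the reverse, 779.6 ± 220.4 against 1221 ± 309 CPM. In uncut control axon cultures of B6 the fibrillar sum was 4007 ± 2419.7 CPM and the basement membrane sum 3952 ± 3173 CPM, both with SDs of more than the difference between them. The heat map shows these shifts gene by gene.

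**Figure D1:**
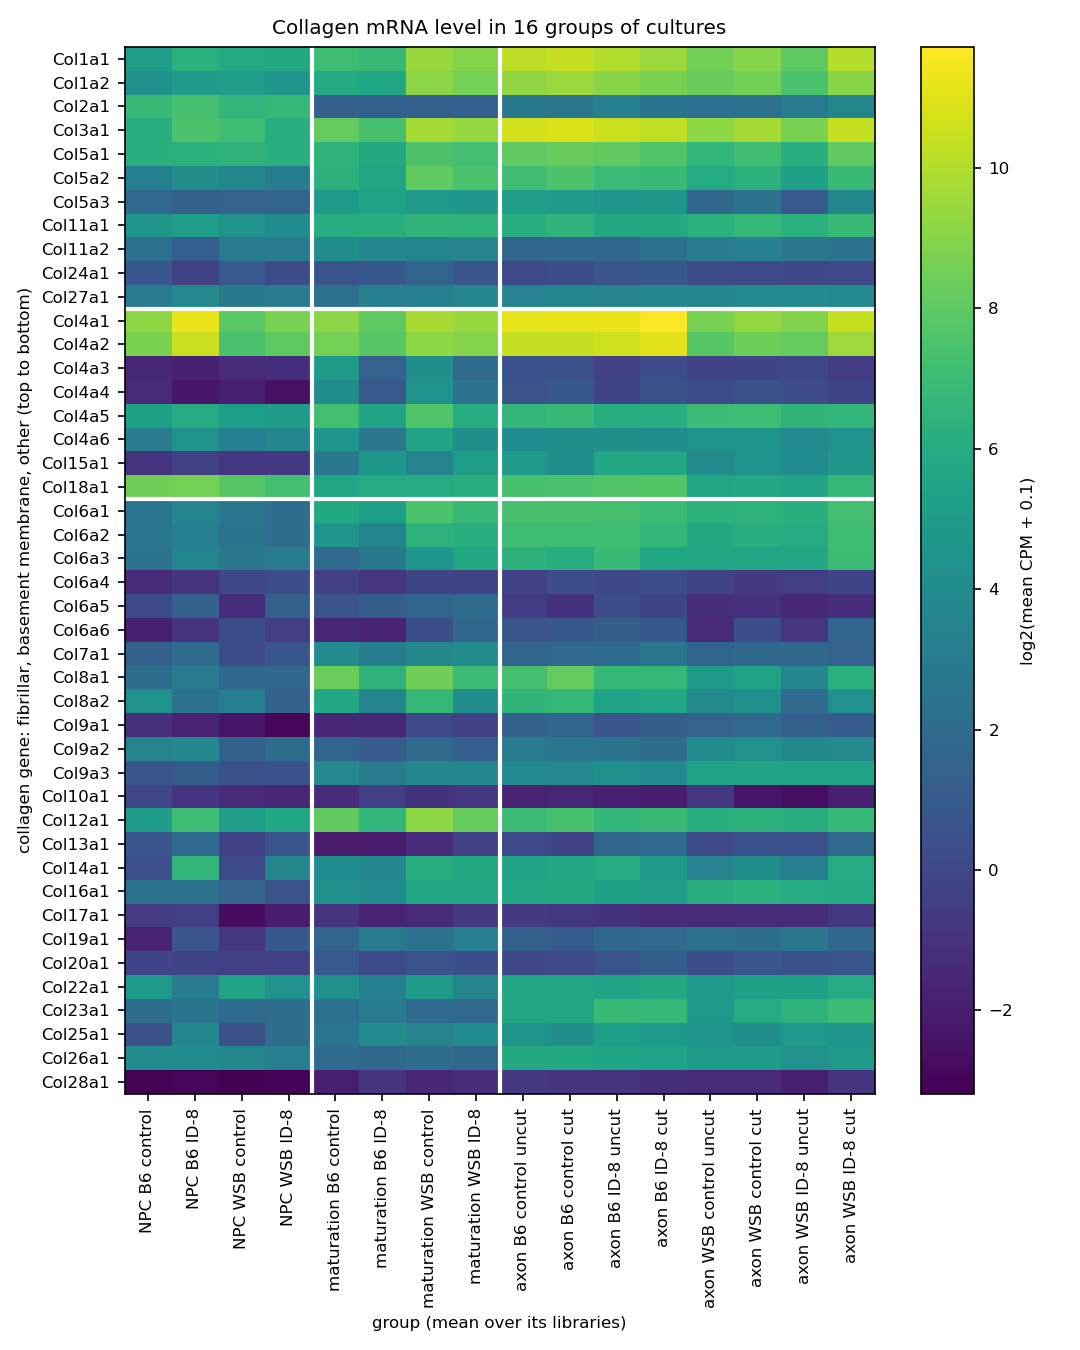
Mean level of each of the 44 collagen genes (rows, grouped by class) in the 16 groups (columns, ordered by stage), as log2(mean CPM + 0.1). Col2a1 is brightest in the 4 NPC columns, Col4a1 and Col4a2 are brightest in NPC B6 ID-8 and the B6 axon columns, and Col4a3 and Col4a4 stand out in the maturation control columns.

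Of the 44 genes, 19 had a group mean over 100 CPM somewhere and 10 never reached a mean of 5 CPM in any group. Chains that share a trimer had similar profiles over the 16 group means, which share library totals and, within a stage, cultures. As a description, Pearson's r of their log2 means was 0.99 for Col1a1 with Col1a2, 0.99 for Col4a1 with Col4a2, 0.96 for Col4a3 with Col4a4, 0.83 for Col4a5 with Col4a6, 0.97 for Col6a1 with Col6a2 and 0.82 for Col8a1 with Col8a2. Per kilobase of exon, the Col1a1 level was 2.32 to 4.60 times that of Col1a2, whose chain enters the type I trimer once for each pair of Col1a1 chains. The length used is the union of all annotated exons, 6.56 kilobases for Col1a1 and 12.4 for Col1a2. This ratio therefore depends on the annotation and does not measure the ratio of chains. The Col4a1 level per kilobase was 1.02 to 1.66 times that of Col4a2. Looser pairs were Col6a1 with Col6a3 (0.78), Col5a1 with Col5a2 (0.76) and Col9a1 with Col9a2 (0.55). Col2a1 with Col11a1, partners in cartilage fibrils, ran in opposite directions (-0.86), Col2a1 being high and Col11a1 low at the NPC stage.

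At the NPC stage, untreated B6 cultures held more mRNA of Col4a1 and Col4a2 than untreated WSB cultures and less of Col3a1. Col18a1 was also called lower and Col1a1 higher in WSB, each in only part of the alternative fits. Col4a1, the main chain of basement membrane type IV collagen, ran from 352 to 762 CPM with a median of 587 CPM in 6 B6 control libraries and from 165 to 336 CPM with a median of 234 CPM in 6 WSB control libraries. Every B6 value lay above every WSB value, and the log2 difference, WSB minus B6, was -1.22 ± 0.37, adjusted p = 0.0104. Its partner Col4a2 differed by -1.19 ± 0.34, adjusted p = 0.00778. Col18a1, the source of the antiangiogenic fragment endostatin, ran from 185 to 456 CPM with a median of 384 CPM in B6 and from 111 to 367 CPM with a median of 216 CPM in WSB, ranges that overlapped (log2 difference -0.67 ± 0.22, adjusted p = 0.0171). Col3a1, the fibrillar collagen of soft tissue, went the other way, from 42.0 to 101.7 CPM with a median of 78.7 CPM in B6 and from 89.5 to 178 CPM with a median of 130.6 CPM in WSB (log2 difference 0.88 ± 0.27, adjusted p = 0.0122), as did Col1a1 (0.82 ± 0.31, adjusted p = 0.0378). Among lower genes, Col9a2, a fibril-associated chain of cartilage, was 11.2 ± 3.88 CPM in B6 and 2.48 ± 0.482 CPM in WSB (-2.12 ± 0.25, adjusted p = 7.00e-07), and Col17a1, the hemidesmosome collagen, and the anchoring fibril gene Col7a1 differed by -3.11 and -1.25. In WSB control Col17a1 and Col7a1 had means of 0.0556 and 1.11 CPM, and Col17a1 rested there on 0 to 5 counts a library. Col9a1 was also lower (-1.81 ± 0.61), on 0 to 7 counts in each WSB control library. Col6a4 and Col6a6, of the beaded filament family, were higher in WSB by 1.99 ± 0.34 and 2.82 ± 0.58, at means of about 1 CPM in WSB and of 0.270 and 0.175 CPM in B6.

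Of the 43 collagen genes tested, 4 were called higher in WSB, beside 19.7% of all genes, and 9 lower, beside 25% of all genes, so neither count of members stands above the background. The counts within the 2 series of library numbers, each with 3 libraries a group, were 2 higher, beside 9.21% of all genes, and 7 lower, beside 15.2%, in the first, and 4 higher, beside 4.98%, and 3 lower, beside 11.3%, in the second. The calls of Col18a1 and Col1a1 were each lost in 4 of 8 alternatives (adjusted p up to 0.191 and 0.460), those of Col9a1, Col7a1 and Col6a6 in 1 to 3 of 8, and those of Col4a1, Col4a2 and Col3a1 in 1 of 8 (up to 0.167, 0.170 and 0.224). Col4a1 differed by -1.36 (adjusted p = 0.0351) in the first series and -1.14 (adjusted p = 0.167) in the second, and Col3a1 by 0.71 (adjusted p = 0.224) and 1.04 (adjusted p = 0.0378). Col2a1 did not pass the test (114.95 ± 31.9 against 99.9 ± 26.5 CPM, -0.14 ± 0.27, adjusted p = 0.694). Of the 49 tested genes for collagen folding, processing, receptors and breakdown, 6 were higher and 11 lower in WSB, Serpinh1, the collagen chaperone, among the lower ones (-0.61 ± 0.21, adjusted p = 0.0228). The pluripotency markers Nanog, Pou5f1, Utf1 and Tdgf1 differed in the same direction as Col4a1: their sum was 231 to 684 CPM in B6 and 10.9 to 24.8 CPM in WSB. The endothelial marker sum also had a higher median in B6, with overlap (52.1 to 276.4 against 25.7 to 71.4 CPM in WSB). The cartilage marker sum went the other way (26.4 to 68.8 CPM in B6 and 72.3 to 118.68 CPM in WSB). The part of these markers in the collagen difference was not tested.

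In B6 NPC cultures with ID-8, 21 of 43 collagen genes were higher than in control, and Col4a1 was the most abundant of them. Col4a1 ran from 352 to 762 CPM with a median of 587 CPM in B6 control and from 699.8 to 4457 CPM with a median of 2223 CPM in B6 ID-8, and 5 of the 6 ID-8 libraries lay above every control library (log2 difference, ID-8 minus control, 2.13 ± 0.38, adjusted p = 0.000226). Col4a2 rose with it (1.87 ± 0.35, adjusted p = 0.000350), and Col4a6, a chain of some epithelial basement membranes, rose by 1.36 ± 0.41. Col14a1, a fibril-associated collagen, was low in control, from 0.585 to 2.74 CPM with a median of 1.05 CPM, and ran from 34.4 to 267 CPM with a median of 71.5 CPM with ID-8, with no overlap (6.45 ± 0.69, adjusted p = 1.66e-06). Col12a1, its close relative, ran from 20.1 to 58.3 CPM with a median of 30.1 CPM in control and from 44.8 to 332 CPM with a median of 109 CPM with ID-8 (2.15 ± 0.38, adjusted p = 0.000235). Col25a1, a transmembrane collagen of neurons, ran from 0.840 to 1.61 CPM with a median of 1.43 CPM in control and from 3.69 to 36.0 CPM with a median of 8.88 CPM with ID-8, again without overlap (3.44 ± 0.45, adjusted p = 1.01e-05), and Col19a1 rose by 3.42 ± 0.61 from a mean of 0.191 CPM.

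The fibrillar genes Col3a1, Col1a1 and Col1a2 were also called higher in the same B6 cultures, though not in each alternative fit. Col3a1 ran from 42.0 to 101.7 CPM with a median of 78.7 CPM in control and from 68.4 to 288 CPM with a median of 187 CPM with ID-8, with overlap (1.27 ± 0.28, adjusted p = 0.00118). Col1a1 rose by 1.16 ± 0.31, adjusted p = 0.00606 and Col1a2 by 0.82 ± 0.31, adjusted p = 0.0368. The call was lost in 2 of 8 alternatives for Col3a1 and for Col1a1 and in 4 of 8 for Col1a2, with adjusted p up to 0.220, 0.370 and 0.395. Col6a1 and Col6a3, chains of the beaded filament type VI, rose by 1.11 ± 0.30 and 1.44 ± 0.38, Col6a5 by 1.59 ± 0.51 and the transmembrane Col13a1 by 1.37 ± 0.35. The genes that fell were Col8a2, a short chain collagen of Descemet's membrane in the eye, which ran from 11.4 to 43.1 CPM with a median of 15.4 CPM in control and from 1.13 to 12.0 CPM with a median of 4.43 CPM with ID-8 (-2.07 ± 0.47, adjusted p = 0.00174), Col22a1, a collagen of tissue junctions (-1.79 ± 0.28, adjusted p = 7.07e-05), and the minor fibrillar gene Col24a1 (-1.27 ± 0.26). The calls of Col4a6, Col13a1, Col6a1, Col6a3, Col22a1, Col24a1 and Col8a2 were lost in 1 to 3 of 8 alternatives. Col18a1 and Col2a1 were not called: Col18a1 was 367 ± 98.9 CPM in control and 384 ± 83.6 with ID-8, and Col2a1 114.95 ± 31.9 and 159.8 ± 84.3 CPM.

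In all, 21 of 43 collagen genes rose with ID-8 in B6, beside 18.3% of all genes, and 3 fell, beside 21.8%. By class, 6 of 11 fibrillar, 3 of 8 basement membrane and 12 of 24 other genes rose. The median log2 difference was 0.66 over the collagen genes and -0.03 over all genes. Within the first library series alone 8 rose, beside 3.95% of all genes, and 1 fell, beside 4.03%, and within the second 11 rose, beside 11.7%, and 2 fell, beside 11%, with Col4a1 at 2.34 and 1.95 and Col14a1 at 6.68 and 5.95. The collagen folding genes moved too: 13 of 20 rose and 1 fell, including Serpinh1 (0.92 ± 0.21, adjusted p = 0.00182), the prolyl isomerase Fkbp10 (1.26 ± 0.27, adjusted p = 0.00112), the lysyl hydroxylase Plod2 (1.02 ± 0.22, adjusted p = 0.00133) and Creb3l1, a transcription factor for collagen genes (1.40 ± 0.28, adjusted p = 0.000562). Of the crosslinking and processing genes 4 of 13 rose and 4 fell, of the receptors 1 of 9 rose and 3 fell, and of the breakdown genes 2 of 7 rose. Adgrg1, a receptor for type III collagen in the developing cortex, fell by 1.67 on the log2 scale, and Ddr2, a receptor for fibrillar collagen, rose by 1.34.

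Markers of other cell types moved in the same libraries. Of 7 endoderm markers 6 rose, and their sum went from 23.2 to 42.8 CPM in B6 control to 57.1 to 329 CPM with ID-8, Afp being under 0.1 CPM in every control library. All 4 smooth muscle markers rose (sum 40.2 to 166 against 143 to 1574 CPM), 5 of 8 fibroblast and mesenchyme markers rose (sum 36.0 to 70.5 against 129 to 208 CPM), and 3 of 4 pluripotency markers rose (sum 231 to 684 against 531 to 1203 CPM). The neuron marker sum was 908 to 2493 CPM in control and 155 to 1399 CPM with ID-8. Their part in the collagen rise was not tested.

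**Figure D2:**
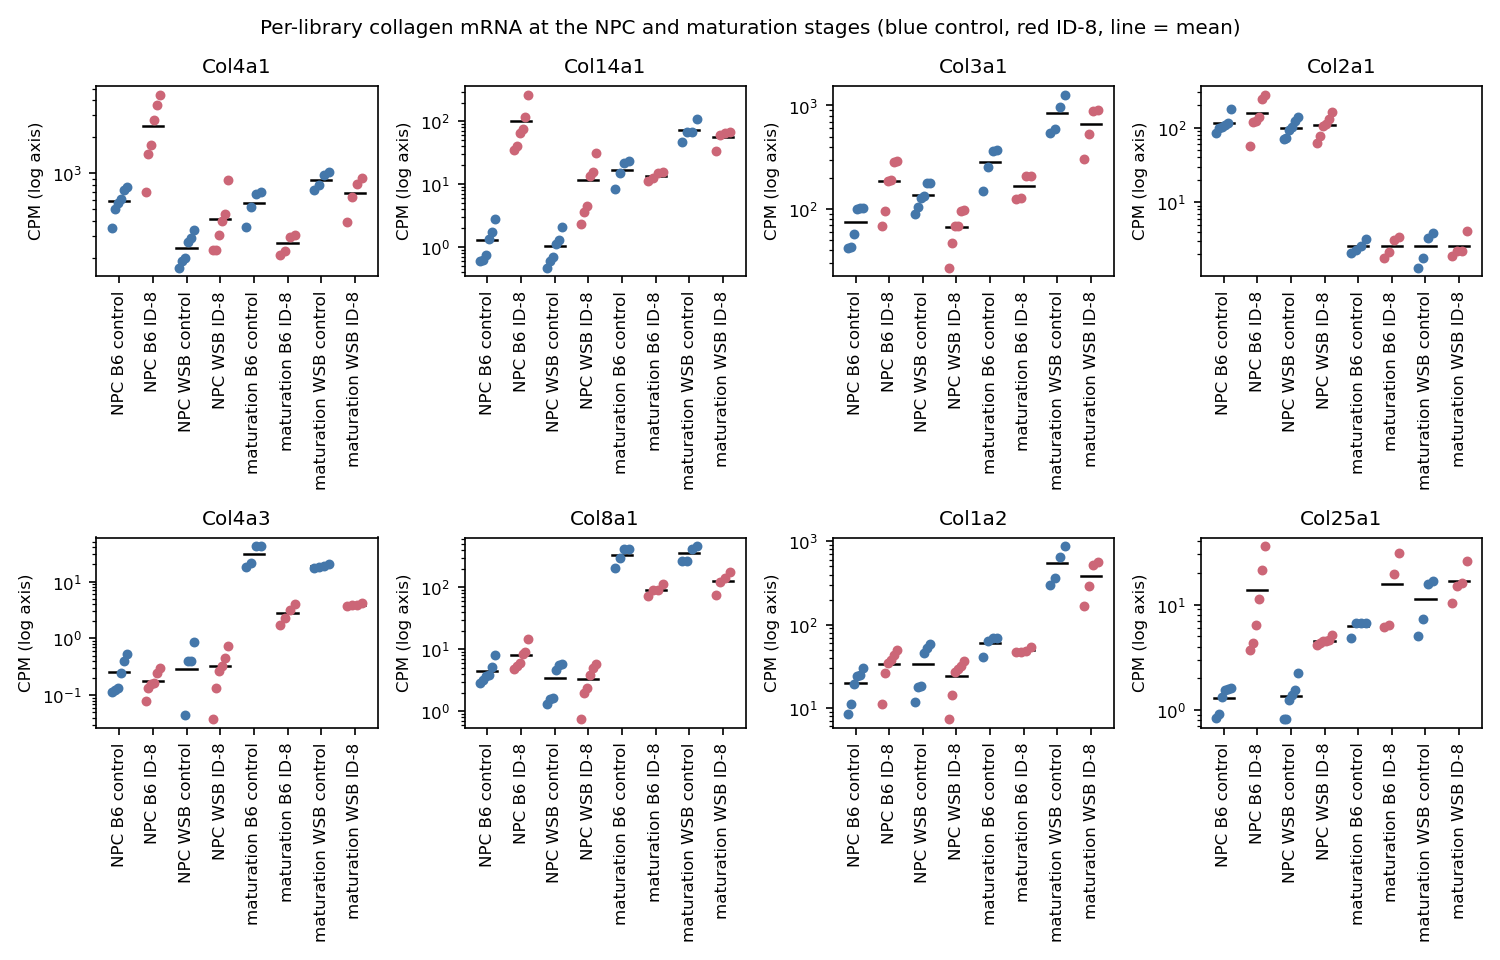
CPM (log axis) of 8 collagen genes in each library of the NPC and maturation groups. Points are libraries, black lines are group means, blue is control and red is ID-8. Col14a1 is separated by ID-8 at the NPC stage in both strains, Col4a3 and Col8a1 are separated by ID-8 at the maturation stage in both strains, and Col1a2 is separated by strain at the maturation stage.

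In WSB NPC cultures ID-8 changed 10 collagen genes, 5 upward, beside 4.65% of all genes, and 5 downward, beside 4.81%. Col14a1 ran from 0.467 to 2.08 CPM with a median of 0.902 CPM in control and from 2.28 to 31.8 CPM with a median of 8.91 CPM with ID-8, every ID-8 value above every control value (3.41 ± 0.63, adjusted p = 0.00169). Col25a1 ran from 0.818 to 2.24 CPM with a median of 1.33 CPM in control and from 4.12 to 5.18 CPM with a median of 4.48 CPM with ID-8, also without overlap (1.79 ± 0.43, adjusted p = 0.0105). Col19a1 rose by 2.05 ± 0.55, adjusted p = 0.0220 and Col6a5 by 2.89 ± 0.55, adjusted p = 0.00222. Col8a2 fell, from 9.29 ± 5.42 to 2.64 ± 1.33 CPM (-1.87 ± 0.47, adjusted p = 0.0156), and Col3a1, which rose in B6, fell here from 135 ± 37.0 to 67.4 ± 27.4 CPM (-1.01 ± 0.27, adjusted p = 0.0220). Col4a1 was 241 ± 67.2 CPM in control and 418 ± 241 CPM with ID-8 and did not pass the test (0.76 ± 0.37, adjusted p = 0.209). Neither library series alone gave a call among the collagen genes in WSB by edgeR, beside 0.961% and 0.0117% of all genes called in either direction. At an unadjusted p under 0.05 there were 12 and 13, and the share of all genes at that threshold is not given. Col14a1 differed by 2.61 in the first series and 3.76 in the second. Of the 49 collagen pathway genes tested, 2 rose and 6 fell, among them Pcolce, which helps trim fibrillar procollagens (-1.49 ± 0.30, adjusted p = 0.00300). All 4 pluripotency markers rose in the same cultures (sum 10.9 to 24.8 CPM in control and 29.2 to 213 CPM with ID-8), and 2 of 4 smooth muscle markers rose (49.0 to 212 and 29.0 to 540.0 CPM). Of 5 endothelial markers 2 rose and 2 fell (25.7 to 71.4 and 7.84 to 19.2 CPM), and of 7 endoderm markers 2 rose and 1 fell. Their part in the collagen changes was not tested. The calls of Col14a1, Col25a1, Col19a1, Col6a5, Col8a2 and Col3a1 were each lost in 3 or 4 of 8 alternatives, the single series among them.

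Tested directly, the ID-8 response differed between B6 and WSB for 3 collagen genes, each with a response that was lower in WSB: Col3a1 (-2.28 ± 0.39, adjusted p = 0.00524), Col6a1 (-1.58 ± 0.42, adjusted p = 0.0422) and Col11a1 (-0.99 ± 0.24, adjusted p = 0.0273). This is 0 genes upward, beside 1.43% of all genes, and 3 of 43 downward, beside 1.74%, both in edgeR. DESeq2 gave 9 downward, and its share of all genes is not given, so this count cannot be set against a background. Either library series alone gave 0 in edgeR, beside 0% and 0% of all genes called in either direction. At an unadjusted p under 0.05 there were 8 and 14, and the share of all genes at that threshold is not given. The call of Col3a1 was lost in 3 of 8 alternatives and that of Col6a1 in 5 of 8, with adjusted p up to 0.392 and 0.442. For Col4a1 the difference was -1.37 ± 0.51, adjusted p = 0.131 and for Col14a1 -3.04 ± 0.86, adjusted p = 0.0524, neither of them called. Of 49 pathway genes 1 was called upward and 11 downward, 9 of the 11 being folding genes such as Serpinh1 (-1.50 ± 0.30, adjusted p = 0.00954) and Plod2 (-1.74 ± 0.32, adjusted p = 0.00603). These responses and the strain comparison above share control libraries.

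**Figure D3:**
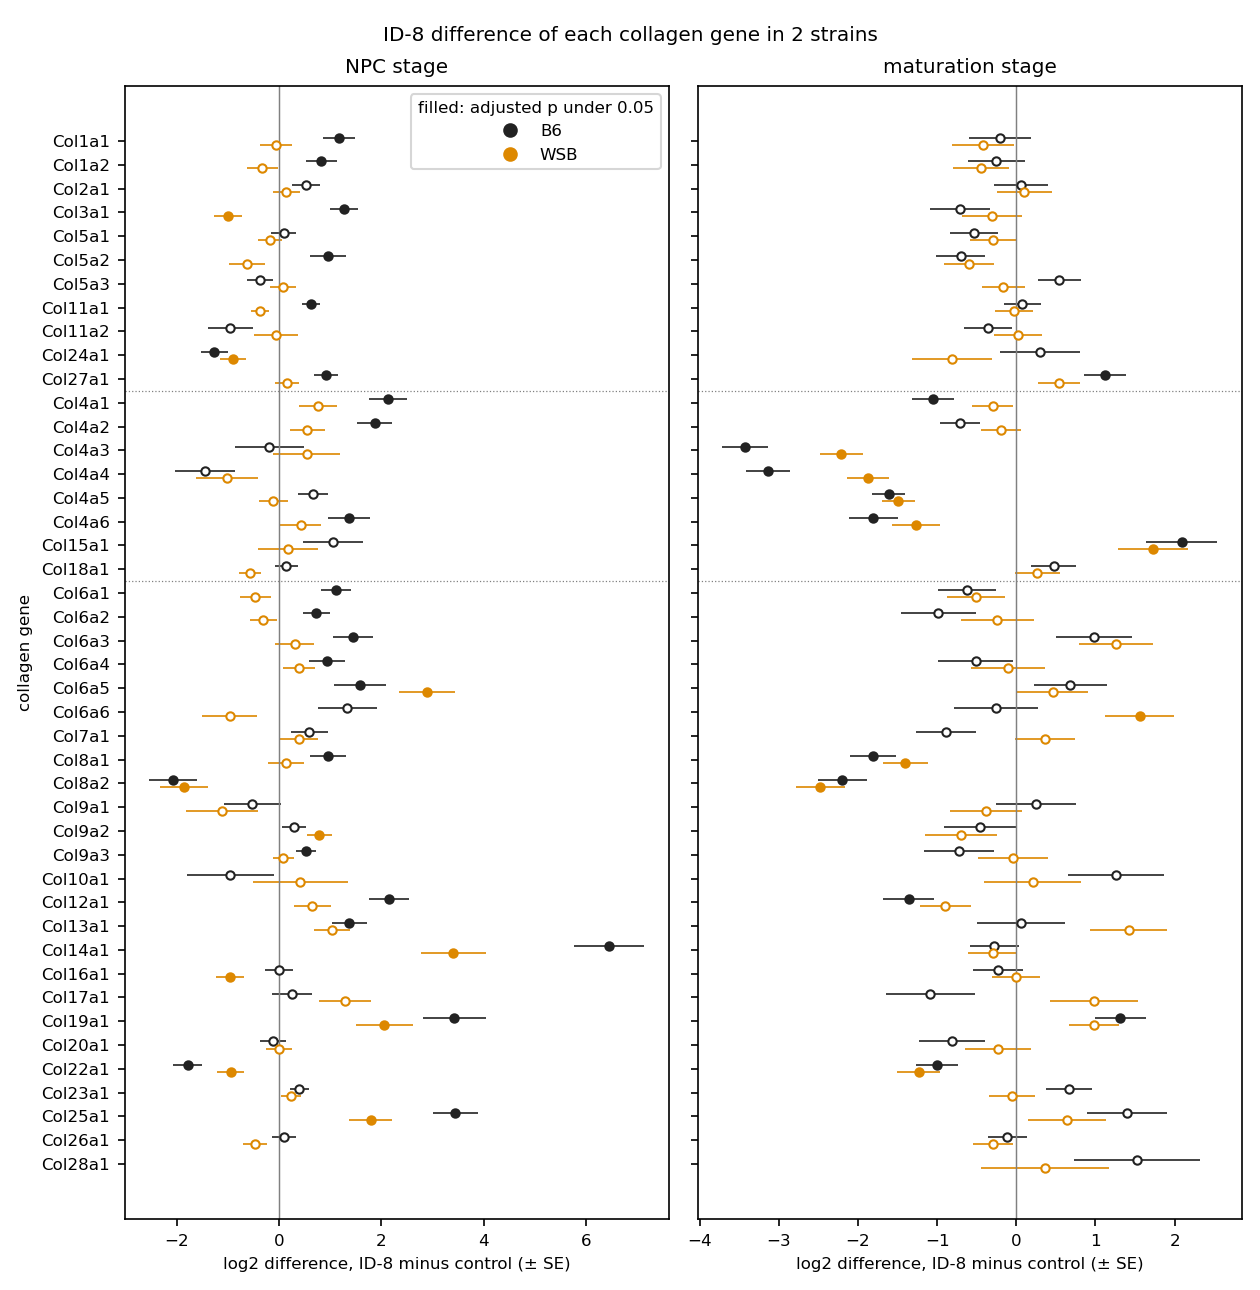
Log2 difference between ID-8 and control (horizontal axis, bars are SE) for each collagen gene (rows, by class) in B6 (black) and WSB (orange), at the NPC stage (left) and the maturation stage (right). Filled points passed an adjusted p under 0.05: 24 in B6 and 10 in WSB at the NPC stage, 12 and 9 at the maturation stage.

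At the maturation stage 15 of 44 collagen genes were higher in WSB control than in B6 control, 6 of them fibrillar and the other 9 including type VI and fibril-associated chains. Col1a2, the second chain of type I collagen, was 41.0, 63.0, 69.5 and 68.4 CPM in the 4 B6 control libraries and 877, 649.6, 368 and 304 CPM in the 4 WSB control libraries. The groups did not overlap (log2 difference, WSB minus B6, 3.18 ± 0.39, adjusted p = 3.40e-05). Col1a1 was 94.3, 165, 138 and 149.6 CPM in B6 and 1156, 843, 424 and 365 CPM in WSB, again without overlap (2.35 ± 0.41, adjusted p = 0.00104). Col3a1 was 148, 256, 369 and 363 CPM in B6 and 1273, 966, 591 and 544 CPM in WSB (1.57 ± 0.39, adjusted p = 0.0120). Col5a2 and Col5a1, whose type V chains start collagen fibrils, were higher by 1.71 ± 0.32 and 1.09 ± 0.30.

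Type VI followed the same direction: Col6a3 was 2.58, 4.27, 3.96 and 3.72 CPM in B6 and 36.6, 29.0, 18.54 and 14.4 CPM in WSB (2.75 ± 0.50, adjusted p = 0.00132), and Col6a1, Col6a2 and Col6a6 were higher by 1.61 ± 0.37, 1.88 ± 0.48 and 2.30 ± 0.49. The fibril-associated genes Col14a1, Col12a1, Col16a1 and Col9a1 were higher in WSB by 2.10 ± 0.32, 1.10 ± 0.32, 1.44 ± 0.31 and 2.05 ± 0.49. The 15 higher genes stand beside 7.38% of all genes, and 0 were lower, beside 7.39%. By class these were 6 of 11 fibrillar, 0 of 8 basement membrane and 9 of 25 other genes. Col4a1, Col18a1, Col2a1 and Col25a1 were not called (adjusted p = 0.117, 0.360, 0.986 and 0.286). Within the 2 culture experiments that the culture names give, each with 2 libraries a group, 26 genes were higher, beside 15.8% of all genes, and 0 lower, beside 12.2%, in the first, and 14 higher, beside 14.6%, and 5 lower, beside 15.2%, in the second. The call of Col3a1 was lost in the second experiment alone (adjusted p = 0.0581) and that of Col9a1 in the first alone (adjusted p = 0.0998). Leaving out 1 library ended the calls of Col5a1 (without B6 control replicate 1 or 2 or WSB control replicate 1 or 2) and Col6a2 (without WSB control replicate 1), and the highest adjusted p over all alternatives was 0.147 and 0.0505. Of 50 pathway genes 10 were higher and 2 lower in WSB, among the higher ones Adamts2, which trims fibrillar procollagens (1.61 ± 0.26, adjusted p = 0.000559), and Ctsk, a protease for collagen (1.86 ± 0.44, adjusted p = 0.0101). Of 8 fibroblast and mesenchyme markers 2 were higher, with a sum of 383 to 463 CPM in B6 and 609 to 1097 CPM in WSB, and their part was not tested.

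ID-8 at the maturation stage was accompanied in both strains by lower levels of the minor type IV chains and of type VIII collagen. Col4a3, a chain of the kidney and lung type of basement membrane, was 18.4, 21.1, 42.0 and 41.6 CPM in B6 control and 1.74, 2.25, 4.00 and 3.15 CPM in B6 ID-8 (-3.42 ± 0.29, adjusted p = 4.06e-06). In WSB it was 17.8, 20.2, 18.9 and 17.5 CPM in control and 4.16, 3.70, 3.84 and 3.81 CPM with ID-8 (-2.21 ± 0.28, adjusted p = 0.000485). Neither strain's groups overlapped. Col4a4, which joins Col4a3 and Col4a5 in 1 trimer, fell by 3.14 in B6 and 1.87 in WSB on the log2 scale. Col4a5 was 90.7, 118.99, 177 and 198 CPM in B6 control and 37.7, 53.7, 49.7 and 44.8 CPM with ID-8, and 196, 196, 201 and 185 and 65.2, 74.5, 50.1 and 78.02 CPM in WSB control and ID-8. Those groups were apart in both strains (-1.61 ± 0.21, adjusted p = 0.000128 in B6 and -1.49 ± 0.21, adjusted p = 0.000917 in WSB). Col4a6 differed by -1.80 ± 0.31, adjusted p = 0.00100 in B6 and -1.27 ± 0.30, adjusted p = 0.0205 in WSB. The abundant chain Col4a1 fell in B6, from 563 ± 156 to 262 ± 49.1 CPM (-1.05 ± 0.26, adjusted p = 0.0124), and was 875 ± 141 and 687 ± 227 CPM in WSB (-0.30 ± 0.26, adjusted p = 0.581).

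Col8a1, a short chain collagen made by endothelium and smooth muscle, was 207, 294, 411 and 423 CPM in B6 control and 111, 90.9, 91.9 and 72.8 CPM in B6 ID-8 (-1.81 ± 0.29, adjusted p = 0.000594). In WSB it was 462, 412, 270.3 and 270.1 CPM in control and 177, 142, 76.4 and 120.04 CPM with ID-8 (-1.40 ± 0.28, adjusted p = 0.00868). Its partner Col8a2 fell in both strains, with a difference of -2.20 ± 0.31, adjusted p = 0.000225 in B6 and -2.47 ± 0.31, adjusted p = 0.000485 in WSB. Col22a1 differed by -0.999 ± 0.27, adjusted p = 0.0184 in B6 and -1.23 ± 0.27, adjusted p = 0.0138 in WSB, and Col12a1 fell in B6 (-1.36 ± 0.32, adjusted p = 0.00935). The genes that rose were Col15a1, a basement membrane proteoglycan, with 3.91, 5.29, 8.49 and 9.29 CPM in B6 control and 38.3, 45.5, 13.2 and 13.0 CPM in B6 ID-8 (2.09 ± 0.45, adjusted p = 0.00491) and a difference of 1.73 ± 0.44, adjusted p = 0.0305 in WSB, and, in B6, Col19a1 (1.31 ± 0.32, adjusted p = 0.0110) and the fibrillar gene Col27a1 (1.12 ± 0.27, adjusted p = 0.00923). In WSB Col6a6 rose (1.56 ± 0.44, adjusted p = 0.0474). The type I and type III genes did not pass the test in either strain: Col1a1 was 137 ± 30.5 and 114.8 ± 22.3 CPM in B6 and 697 ± 373 and 502 ± 254 CPM in WSB, control first. Col25a1 was 6.74, 6.66, 6.70 and 4.83 CPM in B6 control and 19.4, 31.0, 6.45 and 6.19 CPM with ID-8, high in 2 ID-8 libraries of 1 experiment only (1.40 ± 0.50, adjusted p = 0.0696).

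In B6, 3 of 44 collagen genes rose with ID-8 at maturation, beside 7.71% of all genes, and 9 fell, beside 9.41%. With the culture experiment as a block 4 rose, beside 13.4% of all genes in that fit, and 15 fell, beside 15.1%, the added genes including Col4a2 (-0.78 ± 0.20, adjusted p = 0.00979), Col6a1 (-0.78 ± 0.21, adjusted p = 0.0119) and Col5a2 (-0.76 ± 0.26, adjusted p = 0.0414). In WSB 2 rose, beside 2.86% of all genes, and 7 fell, beside 3.03%. Of the 8 basement membrane genes 5 fell in B6 and 4 in WSB. The median log2 difference of that class was -1.33 in B6 and -0.78 in WSB, against 0.0042 and -0.0033 over all genes. Within the first and second culture experiments Col4a3 differed by -3.23 and -3.54 in B6 and by -2.22 and -2.19 in WSB. Col3a1 differed in B6 by 0.13 in the first and -1.53 in the second. In the first experiment alone 9 collagen genes rose in B6, beside 16.6% of all genes, and 7 fell, beside 14.8%, and in the second 4 rose, beside 13.8%, and 19 fell, beside 16.4%. In WSB 4 rose, beside 7.76%, and 7 fell, beside 5.75%, in the first, and 4 rose, beside 7.44%, and 10 fell, beside 8.21%, in the second. In B6 the calls of Col4a1 and Col12a1 were lost in the first experiment alone (adjusted p = 0.0794 and 0.0548), where Col4a1 differed by -0.46 against -1.63 in the second. In WSB the calls of Col15a1, Col6a6 and Col4a6 ended when some single libraries of either group were left out, with adjusted p up to 0.0986, 0.180 and 0.0641 over the alternatives. Tested directly, the response differed between B6 and WSB for 0 collagen genes in edgeR, beside 0.377% of all genes upward and 0.0826% downward, and for 0 by DESeq2. At an unadjusted p under 0.05 there were 5 in edgeR, and the share of all genes at that threshold is not given. The response differed for 2 in the first experiment alone, beside 2.81% of all genes in either direction, and 5 in the second, beside 3.64%.

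Of the 50 tested genes that make, bind or break down collagen, 20 fell and 0 rose with ID-8 at maturation in B6, and 12 fell and 0 rose in WSB, beside the shares of all genes given above. With the culture experiment as a block 27 fell and 1 rose in B6, and 23 fell, beside 7.03% of all genes in that fit, and 2 rose, beside 7.17%, in WSB. Lox, the enzyme that crosslinks collagen and elastin, differed by -2.48 ± 0.30, adjusted p = 7.12e-05 in B6 and -1.91 ± 0.30, adjusted p = 0.00157 in WSB. Pcolce differed by -2.28 ± 0.37, adjusted p = 0.000673 and -2.10 ± 0.36, adjusted p = 0.00357, P4ha1, a prolyl hydroxylase subunit, by -0.95 ± 0.19, adjusted p = 0.00302 and -1.26 ± 0.19, adjusted p = 0.00127, and Itgb1, the shared subunit of the collagen-binding integrins, by -1.17 ± 0.19, adjusted p = 0.000608 and -0.70 ± 0.18, adjusted p = 0.0347. Smooth muscle markers moved with these genes in B6: all 4 fell, and their sum was 2044 to 4589 CPM in control and 227 to 449 CPM with ID-8. In WSB the sum was 1363 to 3747 CPM in control and 559 to 2397 CPM with ID-8, and 0 of the 4 were called. Fibroblast and mesenchyme markers fell in 3 of 8 cases in B6 and 1 of 8 in WSB. Of 4 tested endothelial markers 2 fell in B6 (sum 17.0 to 29.9 CPM in control and 2.54 to 7.53 CPM with ID-8) and 0 in WSB (25.8 to 48.9 and 8.89 to 36.1 CPM). The neural progenitor sum was 370.1 to 527 CPM in B6 control and 671 to 927 CPM with ID-8, with 1 of its 4 markers up and 1 down, and 269 to 341 and 369 to 870.2 CPM in WSB, with 1 up. Of 5 tested endoderm markers 3 rose in B6, at sums of 6.65 to 8.91 and 10.8 to 11.2 CPM. The part of these markers in the collagen differences was not tested.

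At the axon stage collagen levels followed the culture set more than treatment or cutting. In B6, the basement membrane sum was 6674 to 8468 CPM in set 3 and 6723 to 8162 CPM in set 4, and 1049.9 to 1670.2 and 1036 to 1136 CPM in sets 1 and 2. The fibrillar sum was highest in set 2, 7155 to 7654 CPM, and 1776 to 2716, 2792 to 4112 and 2558 to 4243 CPM in sets 1, 3 and 4. The fibrillar and basement membrane sums were thus highest in different B6 sets. In WSB, set 1 had the lowest fibrillar sum of the 4 sets, 133 to 169 CPM, against 1679 to 3339 CPM in set 2 and 1464 to 3299.9 CPM in set 4. WSB set 3 ran from 1543 to 1933 CPM in its 2 control libraries, while the library against its strain label had 8069.9 CPM, above every other WSB library and beside B6 set 2.

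Single genes showed how far apart the sets were. Col4a1 was 624, 551, 4029 and 4055 CPM in the uncut control libraries of B6 sets 1 to 4, and Col1a1 was 620.1, 2525, 851 and 810.1 CPM in the same libraries. Col3a1 was 17.4, 935, 771 and 587 CPM in the uncut control libraries of WSB sets 1 to 4. As a description over the 15 B6 libraries, 98.1% of the sum of squares of log2 Col4a1 lay between sets and 1.98% between treatment groups. Over the 14 WSB libraries without the one against its label, the shares for Col1a1 were 97.2% and 3.26%. The share between sets exceeded that between groups for 31 of 44 genes in B6 and 41 of 44 in WSB. An exception in B6 was Col23a1, a transmembrane collagen, with 9.27% between sets and 80.7% between groups. The endoderm marker sum was 127 to 257 and 125 to 273 CPM in B6 sets 3 and 4, where Col4a1 was high, and 13.5 to 24.0 and 3.23 to 6.34 CPM in sets 1 and 2. The endothelial marker sum was split in the same way, 162 to 222 and 154 to 185 CPM in B6 sets 3 and 4, and 44.2 to 137 and 17.1 to 27.4 CPM in sets 1 and 2. The fibroblast marker sum was 101 to 112 CPM in WSB set 1 and 235 to 318 CPM in WSB set 2. Without Thy1, a surface protein that neurons also make, it was 28.0 to 40.8 CPM in WSB set 1 and 181 to 266 CPM in WSB set 2. In B6 sets 1 to 4 the fibroblast marker sum was 330.82 to 450.08, 498.19 to 558.42, 526.04 to 644.6 and 518.76 to 675.78 CPM. It was thus not highest in B6 set 2, where the fibrillar sum was highest. The smooth muscle marker sum, 138.29 to 231.53 CPM, and the meningeal marker sum, 16.389 to 17.569 CPM, were lowest in B6 set 2. In the other B6 sets they were at least 275.02 and 37.896 CPM. The part of these markers in the collagen levels was not tested.

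**Figure D4:**
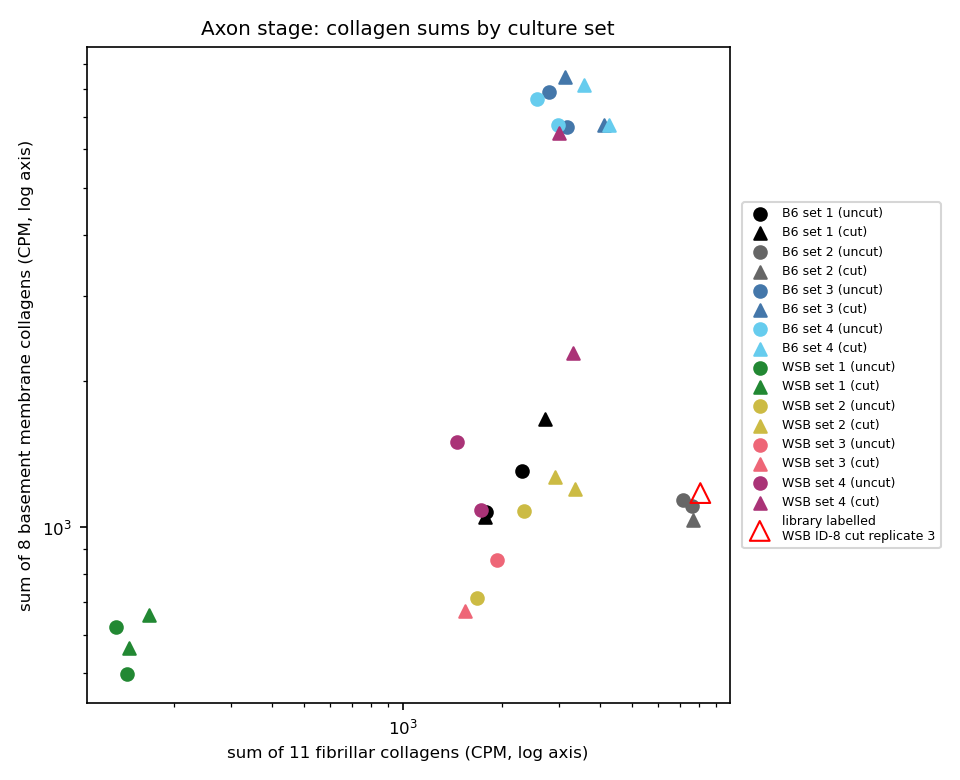
Summed CPM of the 11 fibrillar collagens (horizontal, log axis) and of the 8 basement membrane collagens (vertical, log axis) in each axon library, coloured by culture set, with circles for uncut and triangles for cut cultures. Most libraries of a set lie together, B6 sets 3 and 4 at the top and WSB set 1 at the lower left, and the open triangle, the library against its strain label, lies beside B6 set 2.

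Between uncut control cultures of the strains, 1 collagen gene was called higher in WSB, beside 5.68% of all genes, and 5 lower, beside 7.56%. Col5a3, a minor type V chain, was 26.3, 51.3, 29.2 and 28.6 CPM in B6 and 2.87, 5.01, 3.45 and 1.91 CPM in WSB, without overlap (-2.91 ± 0.74, adjusted p = 0.0109). Col8a2 was 96.6, 20.6, 138 and 119.7 CPM in B6 and 8.56, 22.2, 12.4 and 15.1 CPM in WSB (-2.45 ± 0.73, adjusted p = 0.0281). Col4a1 and Col4a2 were lower in WSB by the fit (-2.76 ± 0.85, adjusted p = 0.0326 and -2.77 ± 0.83, adjusted p = 0.0295), on B6 values that fell into a low and a high pair of sets. Col4a1 ran from 256 to 581 CPM in WSB, a range that held the value of B6 set 2. Col26a1 was lower (-0.78 ± 0.20, adjusted p = 0.0125), and the cartilage chain Col9a3 higher in WSB (1.26 ± 0.40, adjusted p = 0.0368). Culture sets are nested in the strains here, so no fit with the set as a term could be made, and leaving out single libraries moved the count of called genes from 6 to between 2 and 8. It was 2 without B6 control uncut replicate 3 or 4 or WSB replicate 1, 2 or 3, and 3 without B6 replicate 1 or WSB replicate 4. The calls of Col4a1, Col4a2, Col8a2 and Col9a3 ended in such fits (adjusted p up to 0.147, 0.117, 0.0914 and 0.0962 over the alternatives), and that of Col5a3 held in each alternative run (adjusted p up to 0.0480). Without the library against its strain label, which enters only through the shared spread, it was 8. Of 51 pathway genes 2 were higher and 6 lower in WSB. All 4 tested endothelial markers were lower in WSB (sum 22.7 to 175 CPM in B6 and 4.71 to 20.4 CPM in WSB), and the fibroblast sum was 417 to 526.04 and 111 to 277 CPM with 1 of 8 markers lower. Their part was not tested.

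Without the culture set in the fit, ID-8 changed 0 collagen genes in uncut axon cultures of B6, beside 0% of all genes upward and 0% downward in edgeR, and 0 in WSB, beside 0% and 0%. At an unadjusted p under 0.05 there were 0 in B6 and 2 in WSB, and DESeq2 called 0 in both. The sets pair the libraries, and with the set as a block and without the library against its strain label 1 gene rose in B6, beside 2.08% of all genes in that fit, and 3 fell, beside 2.28%. In that fit for WSB 2 rose, beside 5.55%, and 4 fell, beside 5.35%. The gene that rose in both strains was Col23a1, a transmembrane collagen with a shed ectodomain. It was 51.2, 65.2, 54.4 and 41.3 CPM in B6 uncut control and 121, 152, 115.4 and 96.7 CPM in B6 uncut ID-8, sets 1 to 4 in both, with no overlap (1.17 ± 0.31, adjusted p = 0.0422). In WSB it was 6.35, 51.7, 43.5 and 16.2 CPM in control sets 1 to 4 and 10.51, 189 and 58.8 CPM with ID-8 in sets 1, 2 and 4, higher in each of the 3 sets (1.76 ± 0.36, adjusted p = 0.00630). Col26a1, an extracellular collagen first found in testis and ovary, fell in both (-0.38 ± 0.11, adjusted p = 0.0447 in B6 and -0.50 ± 0.12, adjusted p = 0.0143 in WSB). Col4a5 and Col16a1 fell in B6 (-0.53 ± 0.13, adjusted p = 0.0282 and -0.45 ± 0.11, adjusted p = 0.0284), and Col8a2, Col1a1 and Col1a2 fell in WSB (-2.13 ± 0.46, adjusted p = 0.00854, -0.67 ± 0.19, adjusted p = 0.0269 and -0.64 ± 0.18, adjusted p = 0.0297), while Col27a1 rose there (0.52 ± 0.14, adjusted p = 0.0204). With the block but with that library kept, 0 were called in B6 by edgeR, beside 1.22% of all genes in either direction, and 1 in WSB, beside 3.06%. At an unadjusted p under 0.05 there were 12 in B6, and the share of all genes at that threshold is not given.

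Cut cultures were compared with uncut ones to show the response to axotomy. Without the set in the fit, 0 collagen genes differed between cut and uncut control cultures in B6, beside 0% of all genes upward and 0% downward, 0 in WSB, beside 0% and 0%, and 0 in the mean over both strains and treatments, beside 0% and 0%, all by edgeR. At an unadjusted p under 0.05 there were 0, 1 and 2, and DESeq2 called 0 in each. With the set as a block and without the library against its strain label, the mean over strains and treatments had 7 collagen genes higher in cut cultures, beside 3.39% of all genes in that fit, and 2 lower, beside 6.8%. The comparisons within 1 strain's control cultures still had 0 called in that fit, beside 0.0054% of all genes in either direction in B6 and 0.708% in WSB. At an unadjusted p under 0.05 in edgeR they had 6 in B6 and 4 in WSB, and the share of all genes at that threshold is not given. With the set as a block and that library kept, the mean had 1 call, beside 2.8% of all genes in either direction.

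Of the 7 that were higher in cut cultures in that fit, 5 were fibrillar. Col3a1 was 1049.9, 3185, 1283 and 1147 CPM in uncut and 1245, 3296, 1648 and 1652 CPM in cut B6 control cultures, sets 1 to 4 in both. It was higher in the cut culture in 13 of 14 pairs of the same set and treatment, and the blocked log2 difference, cut minus uncut, was 0.40 ± 0.08, adjusted p = 0.0131. Col1a1 was higher in 11 of 14 pairs (0.39 ± 0.08, adjusted p = 0.0133), Col5a1 in 13 of 14 pairs (0.37 ± 0.08, adjusted p = 0.0151), Col5a2 in 11 of 14 pairs (0.35 ± 0.10, adjusted p = 0.0347) and Col1a2 in 11 of 14 pairs (0.29 ± 0.08, adjusted p = 0.0355). The fibril-associated genes Col14a1 and Col22a1 were the remaining pair (0.52 ± 0.14, adjusted p = 0.0265 and 0.32 ± 0.10, adjusted p = 0.0401). Col25a1 and Col19a1 went the other way. Col25a1 was 30.8, 26.0, 15.8 and 18.4 CPM uncut and 28.3, 24.3, 10.0 and 10.1 CPM cut in B6 control, and in WSB control 38.3, 22.2, 22.9 and 16.5 CPM uncut and 34.4, 7.17, 19.2 and 15.1 CPM cut. It was higher in the cut culture in 1 of 14 pairs (-0.45 ± 0.11, adjusted p = 0.0191), and Col19a1 in 2 of 14 pairs (-0.38 ± 0.11, adjusted p = 0.0329). All 9 differences were under 1.5-fold. Of 51 pathway genes 5 were higher in cut cultures and 0 lower in that fit. The fibroblast and mesenchyme sum was higher in the cut culture in 12 of 14 pairs, the smooth muscle sum in 12 of 14 (median 257 CPM uncut and 349.8 CPM cut), the endothelial sum in 13 of 14 and the neuron sum in 2 of 14. In the blocked fit without the library against its label 3 of 8 fibroblast markers were higher in cut cultures and 1 lower, 1 of 4 smooth muscle markers was higher and 4 of 5 neuron markers were lower. Their part in the fibrillar and Col25a1 differences was not tested. In WSB set 4, the set with the later library series, type IV levels were spread over its own libraries: Col4a1 was 4072 CPM in its ID-8 cut library and 1296 CPM in its control cut library, against 581 CPM in its uncut control.

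Between NPC and axon stages Col2a1 fell, and 29 collagen genes rose in B6 and 18 in WSB. The test used control libraries of 1 library series only, 3 at the NPC stage in each strain and 4 (B6) and 3 (WSB, sets 1 to 3) at the axon stage. The shared spread came from all 38 NPC and axon libraries of that series, the library against its strain label among them. No stage fit was run without that library. Levels and marker sums given here and in the next paragraph are over all control libraries of a group, 6 at the NPC stage and 4 at the axon stage. They thus cover libraries that the test did not compare. Col2a1 ran from 84.6 to 176 CPM with a median of 106 CPM in 6 NPC B6 control libraries and was 5.05, 8.91, 7.48 and 6.64 CPM in axon B6 uncut control (-3.80 ± 0.71, adjusted p = 4.23e-05). In WSB it ran from 71.3 to 138 CPM with a median of 97.8 CPM at the NPC stage and was 8.89, 2.28, 2.18 and 5.78 CPM at the axon stage (-4.25 ± 0.81, adjusted p = 7.21e-05). At maturation it was 2.61, 3.26, 2.29 and 2.08 CPM in B6 control. The rises included Col15a1 (5.88 ± 1.11, adjusted p = 5.18e-05 in B6 and 4.15 ± 1.04, adjusted p = 0.00144 in WSB), Col9a3 (2.83 ± 0.42, adjusted p = 1.84e-06 and 4.09 ± 0.46, adjusted p = 2.50e-08), Col16a1 (3.37 ± 0.62, adjusted p = 3.86e-05 and 4.05 ± 0.66, adjusted p = 9.22e-06) and Col25a1, from 1.30 ± 0.344 to 22.8 ± 6.89 CPM in B6 (4.14 ± 0.69, adjusted p = 1.01e-05) and by 4.08 ± 0.70, adjusted p = 1.94e-05 in WSB. Col19a1, Col9a1, Col28a1 and Col26a1 also rose in both strains, and Col10a1, the collagen of hypertrophic cartilage, and Col6a5 fell in B6 (-2.99 ± 0.85, adjusted p = 0.00357 and -1.62 ± 0.60, adjusted p = 0.0223). Among these, Col28a1 had at most 2 counts in any NPC control library, and Col10a1 had a mean of 0.941 CPM in NPC B6 control, its highest group. Col5a2 and Col5a3 rose in B6 (3.74 ± 0.84 and 3.41 ± 0.72), and Col11a1, Col9a2 and Col4a5 in WSB (1.80 ± 0.52, 2.85 ± 0.64 and 2.12 ± 0.50).

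The 29 of 44 that rose in B6 stand beside 28.1% of all genes, and the 3 that fell beside 28.9%. In WSB 18 rose, beside 26.1%, and 2 fell, beside 25%. The median log2 difference over the collagen genes was 1.91 in B6 and 1.71 in WSB, against 0.0027 and 0.02 over all genes. The type I and III genes rose by the test in B6 (Col1a1 4.96 ± 1.38, adjusted p = 0.00312, Col1a2 4.68 ± 1.32, adjusted p = 0.00355, Col3a1 4.42 ± 1.28, adjusted p = 0.00422) and not in WSB (Col1a1 2.03 ± 1.23, adjusted p = 0.173, Col3a1 1.85 ± 1.17, adjusted p = 0.189), where set 1 was low, and the difference between the strains was not tested. Col4a1 rose in B6 (2.01 ± 0.85, adjusted p = 0.0463), the axon values being those of a low and a high pair of sets. Col18a1 fell in WSB (-1.67 ± 0.67, adjusted p = 0.0384) and was 367 ± 98.9 and 165 ± 19.4 CPM in B6 (-0.91 ± 0.61, adjusted p = 0.203). The type VI genes Col6a1 and Col6a2 rose in both strains (4.58 ± 0.99 and 4.44 ± 1.06 in B6, 3.06 ± 0.95 and 3.00 ± 1.02 in WSB), as did Col8a1 (4.90 ± 0.99 and 2.33 ± 0.91) and Col23a1 (3.76 ± 0.90 and 3.37 ± 0.91). The calls of Col4a1 and Col6a5 in B6 and of Col18a1 in WSB ended when some single libraries were left out, with adjusted p up to 0.157, 0.0768 and 0.172 over the alternatives. Of 51 pathway genes 18 rose and 4 fell in B6 and 15 rose and 2 fell in WSB. All 4 astrocyte markers rose in both strains and all 4 pluripotency markers fell. Of 8 fibroblast and mesenchyme markers 5 rose in each strain, and their sum was 36.0 to 70.5 CPM at the NPC stage and 417 to 526.04 CPM at the axon stage in B6, and 22.5 to 43.4 and 111 to 277 CPM in WSB. In B6 3 of 4 smooth muscle markers rose (40.2 to 166 against 138 to 987 CPM), and 2 of 4 meningeal markers rose in B6 and 1 of 4 in WSB. The part of these markers in the collagen differences was not tested. No maturation library shares a library series with the NPC stage, so those stages were not compared by a test.

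The genes that never reached a group mean of 5 CPM were Col6a4, Col6a5, Col6a6, Col9a1, Col10a1, Col13a1, Col17a1, Col20a1, Col24a1 and Col28a1. Among them are Col17a1 of epithelia and Col10a1, and their highest group means were between 0.510 and 4.18 CPM. No order among them is given. The exons of 13 collagen genes overlap exons of another annotated gene, 3 of them on the same strand (Col3a1, Col7a1 and Col20a1), and whether strand was used in counting is not given in the sources used here. The Col4a1 and Col4a2 genes share 22 bases at their starts, on opposite strands. Expected counts that were not whole, as arise when a read fits more than 1 gene, occurred mainly in Col9a3, Col22a1, Col6a5 and Col6a6.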

How the data were processed

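RNA was read from polyadenylated RNA with a stranded kit as paired reads, per the labels' protocols. The authors deposited expected counts per gene and sequenced sample, unscaled, made with Bowtie2, RSEM and featureCounts on build GRCm38, per the submitters' processing notes, which also name limma; versions, annotation release, strand setting and any handling of WSB variants are not given in the sources used here. Of 76 sequenced samples, 6 libraries had 2 runs each, which were summed and rounded with the rest, leaving 70 libraries with totals of 20368997 to 131489457 counts. Groups came from the labels. Levels are CPM of the library total, and errors cover the spread between libraries. Reads carry no molecular identifiers, so copies of 1 molecule are not told apart.

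Each stage was fitted on all its libraries in edgeR 4.0.16 (R 4.3.3; TMM, filterByExpr, robust quasi-likelihood test, Benjamini-Hochberg over all genes tested, called at 0.05), with the library number series as a term at the NPC and axon stages. Stages were compared within 1 library series. The code was tested on simulated data. Pairing was checked by correlating deviations from group means: axon culture sets correlated over 0.1 in 21 of 21 B6 pairs and, without the library against its strain label, 19 of 19 WSB pairs, and maturation culture experiments in 16 of 16. Both are read from the deposited culture names. NPC replicate numbers of the first series did so in 5 of 6 pairs and were not treated as pairs. Culture names of the second NPC series also tie control to ID-8 libraries, and these correlated over 0.1 in 4 of 6 pairs. The NPC tests did not use them as pairs, and no fit with them as a block was run.

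Genes named are 8 core members (Col1a1, Col1a2, Col3a1, Col4a1, Col4a2, Col18a1, Col2a1, Col25a1) and, per comparison, called members with a fold of 2 or more, up to 12 of the smallest p in each direction; others named were chosen after their values were seen. The members, classes, pathway list (53 genes) and marker lists were chosen with earlier results of these data known. Alternatives were DESeq2 1.42.0, RLE size factors, no filter on low counts, first runs only, each series or experiment alone, blocks, and leaving out libraries; the fits without the library against its label and within maturation experiments were chosen after seeing the data. RefSeq promoters matched 35 of 44 members.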

Additional observations from a re-analysis of the deposited data

Results flagged for a closer look

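The 8 core genes were checked in 112 combinations of gene and group for a library far from the rest of its group, measured as the gap to the nearest other library over the group's range on the log2 scale. Chance alone gives about 1 such library in 20 groups. Axon WSB control replicate 1, of WSB set 1, stood below the other 3 libraries of its group for Col1a1 (11.3 CPM against 451 to 541 CPM), Col1a2 (9.48 CPM against 304 to 502 CPM) and Col3a1 (17.4 CPM against 587 to 935 CPM) in the uncut group, and for Col18a1 in the cut group (7.75 CPM against 64.2 to 81.3 CPM). Axon B6 ID-8 uncut replicate 2, of B6 set 2, stood above its group for Col1a1 (2362 CPM against 520.4 to 667 CPM). NPC B6 control replicate 4 was low in Col18a1 (185 CPM against 345 to 456 CPM), and maturation B6 control replicate 4 in Col25a1 (4.83 CPM against 6.66 to 6.74 CPM).

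The response to ID-8 at the NPC stage differed between the strains, by the test of the difference in edgeR, for Col3a1 (-2.28, WSB minus B6, log2), Col6a1 (-1.58) and Col11a1 (-0.99). The call was lost in 3 of 8 alternatives for Col3a1 and in 5 of 8 for Col6a1. No such tally was made for Col11a1, and either library series alone called none of these genes in edgeR.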

How the results depend on the processing

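Of the single-gene calls named, 63 kept their call in every alternative run for them, 42 lost it in at least 1, and 0 changed direction. Counts below are of collagen genes called in either direction. Where no share of all genes is given above for the same fit, as for DESeq2, a count cannot be set against a background. With the second library series alone the NPC strain count was 7 and the B6 ID-8 count 13, and with the first alone the latter was 9. NPC WSB ID-8 had 0 calls in either series alone and 5 with no library series term. The difference of NPC responses had 0 calls in either series alone and 9 by DESeq2. With NPC replicate numbers as a replicate block in the first series, the counts were 10 for strain, 11 for ID-8 in B6, 0 for ID-8 in WSB and 0 for their difference (without it 9, 9, 0 and 0), and these samples share only a number. The second series was not fitted with its culture names as a block. With the culture experiment as a block, maturation ID-8 in B6 gave 19. In the second maturation experiment alone ID-8 gave 23 in B6, 14 in WSB and 5 for their difference; in the first alone the strain count was 26 and the difference 2. With the culture set as a block, axon ID-8 in WSB gave 1 and cut against uncut over all groups 1; without the library against its strain label as well, ID-8 gave 4 in B6 and 6 in WSB, and cut against uncut 9. Leaving out 1 library at a time moved the axon strain count between 2 and 8. Counts from the other alternatives, including RLE size factors, no filter on low counts and first runs only, stayed within 1.5 times the reported count. The axon strain comparison with the set as a block could not be fitted. The 10 collagen genes under a mean of 5 CPM in each group rest on the fewest counts.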
